A study of Mus musculus with 5 samples.

Results

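Reactive astrocytes turn on a group of genes that is shared between inflammatory and ischaemic injury. Its filament genes aside, 8 of these genes were described here by looking up their symbols in the count table: Serpina3n, Lcn2, Cp, Timp1, Steap4, S1pr3, Cd44 and Aspg. All 8 were rows of the table, which holds 35976 genes, and 6 of them had enough reads to be tested. The experiment asked how removing CCR2-expressing monocytes during chronic stress alters amygdala astrocytes of mice. Both groups carried the genotype Ccr2::CreERT2/+;DTR/+, in which an inducible Cre made from the Ccr2 locus switches on a diphtheria toxin receptor, and both received tamoxifen, 18 days of tube restraint, and then fear conditioning and extinction. The first group was given diphtheria toxin (DTx, 3 libraries, called 5A, 6A and 7A) and the other saline (2 libraries, replicates 1 and 2). A further saline library of the design was not analysed here, and sex and age are not given in the labels. Astrocytes were enriched on beads against ACSA-2, an astrocyte surface antigen, and 5 ng of total RNA entered each library.

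The proteins of these genes work at the cell surface or outside the cell in most cases. Serpina3n is a secreted inhibitor of serine proteases, and Timp1 is a secreted inhibitor of matrix metalloproteinases. Lcn2 (lipocalin 2) binds iron-carrying siderophores, Cp (ceruloplasmin) oxidises ferrous iron so that it can leave the cell, and Steap4 reduces ferric iron and copper. S1pr3 is a receptor for the lipid sphingosine 1-phosphate, and Cd44 is a receptor for the matrix sugar hyaluronan. Aspg is an enzyme of the L-asparaginase family. In astrocytes the group is known to be induced by cytokines that act through STAT3 and NF-kB, and it is widely used as a sign that an astrocyte has left its resting state, whatever the injury.

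The promoters of 3 of the genes are shown with any matches to short letter patterns for the sites that such factors bind. Each window runs from 250 bases before to 50 bases after an annotated start (RefSeq, GRCm38.p6, all on the plus strand), and capitals mark matches on either strand to a STAT-type motif (TTCNNNGAA), an NF-kB-type motif or an AP-1-type motif (TGANTCA). The Serpina3n window is chr12:104406458-104406757, the Timp1 window chrX:20869916-20870215 and the Steap4 window chr5:7960222-7960521.
Serpina3n: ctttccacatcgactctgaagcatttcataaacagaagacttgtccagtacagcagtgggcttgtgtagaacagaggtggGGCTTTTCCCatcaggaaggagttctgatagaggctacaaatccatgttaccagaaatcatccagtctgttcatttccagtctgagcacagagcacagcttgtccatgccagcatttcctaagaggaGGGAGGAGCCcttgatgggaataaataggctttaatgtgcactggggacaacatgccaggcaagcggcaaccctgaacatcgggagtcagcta
Timp1: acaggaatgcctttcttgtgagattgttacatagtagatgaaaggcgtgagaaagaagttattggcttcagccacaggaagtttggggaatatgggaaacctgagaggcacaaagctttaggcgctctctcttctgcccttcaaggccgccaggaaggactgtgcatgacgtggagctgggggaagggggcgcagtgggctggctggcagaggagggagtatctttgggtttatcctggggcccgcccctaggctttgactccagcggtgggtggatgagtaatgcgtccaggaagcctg
Steap4: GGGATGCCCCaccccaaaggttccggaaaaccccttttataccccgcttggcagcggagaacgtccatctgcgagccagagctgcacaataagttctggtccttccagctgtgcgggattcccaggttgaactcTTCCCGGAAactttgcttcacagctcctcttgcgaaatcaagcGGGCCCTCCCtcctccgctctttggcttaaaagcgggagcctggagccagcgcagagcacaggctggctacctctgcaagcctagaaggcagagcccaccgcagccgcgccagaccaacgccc
The Serpina3n window held 2 NF-kB-type matches and no other, and the Timp1 window held none of the 3 motifs. Steap4 was the 1 gene of the 8 with a STAT-type match, and it held 2 NF-kB-type matches as well. Among 32851 promoter windows of the same length, 8.3% held the STAT-type motif, 20.7% the NF-kB-type motif and 7.81% the AP-1-type motif. Cp had an AP-1-type match in the first of its windows and an NF-kB-type match in the other, S1pr3 had an NF-kB-type match, and the windows of Lcn2, Cd44 and Aspg had none. The NF-kB-type pattern used was a loose one, which fixes only the letters at its ends and allows any letters between them. Its matches, here in Serpina3n, Cp, Steap4 and S1pr3, may therefore not meet a stricter spelling of an NF-kB site, which was not searched for. A match says only that the letters are present, not that a factor binds there. A site spelled otherwise would not be marked, so a window without a match may still hold one.

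Libraries held 15961220 to 18708138 counts in the DTx group and 20577672 and 23720299 in saline, and levels are given as CPM, which are counts relative to the TMM-scaled library size. All 10 astrocyte markers checked were detected, with summed levels of 16930 to 21560 CPM in DTx libraries and 17930 and 18910 CPM in saline libraries. Oligodendrocyte markers were higher still, at 41030 to 86580 CPM in DTx libraries and 57500 and 88230 CPM in saline libraries. In bulk libraries a change in the number of cells of a type and a change in RNA per cell cannot be told apart. The X-linked transcript Xist stood at 0 to 0.159 CPM in DTx libraries and 173 and 129 CPM in saline libraries, and Y-linked Ddx3y at 116 to 135 CPM in DTx and 0.185 and 0.0448 CPM in saline. In every comparison, treatment and sex-chromosome state cannot be told apart. Ccr2 itself had 62 counts over the DTx libraries, 54 of them in library 5A, and 0 counts over the saline libraries, which makes it at least 17.3-fold higher when 3 counts are allowed over the saline group and at least 3.49-fold without library 5A, a setting chosen after seeing the data. This is opposite to the depletion in the label, so DTx and saline name labels throughout, and every direction is one between libraries so labelled.

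Libraries labelled DTx had more Serpina3n and Timp1 than libraries labelled saline, by 2.23-fold and 4.13-fold in the fit, and slightly more Aspg, with no overlap between groups for these 3 genes. Cp, S1pr3 and Cd44 overlapped between groups, and their highest value lay in each case in DTx library 5A. Lcn2 was practically absent, and Steap4 was near the limit of detection. None of the 6 genes tested passed an adjusted p of 0.05 in edgeR's quasi-likelihood test, where 0.0322% of the 15532 genes tested passed (0.0258% higher and 0.00644% lower in DTx). Those that passed were 5 genes in all, Xist and the Y-linked Ddx3y, Eif2s3y, Uty and Kdm5d, and no gene outside the sex chromosomes was among them. An unadjusted p under 0.05 was reached by 2 of the 6, both higher in DTx, against 6.28% of all genes in either direction and 4.29% with DTx higher. Groups did not overlap, with DTx higher, for 3 of the 6, against 12.1% of all genes. The median log2 fold change was 0.727 for the 6 genes and 0.00171 for all genes tested, and 0.338 for the 6 without library 5A. Timp1 entered the test only through its reads in DTx libraries, so these 6 are not a neutral sample of the 8.

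**Figure D1:**
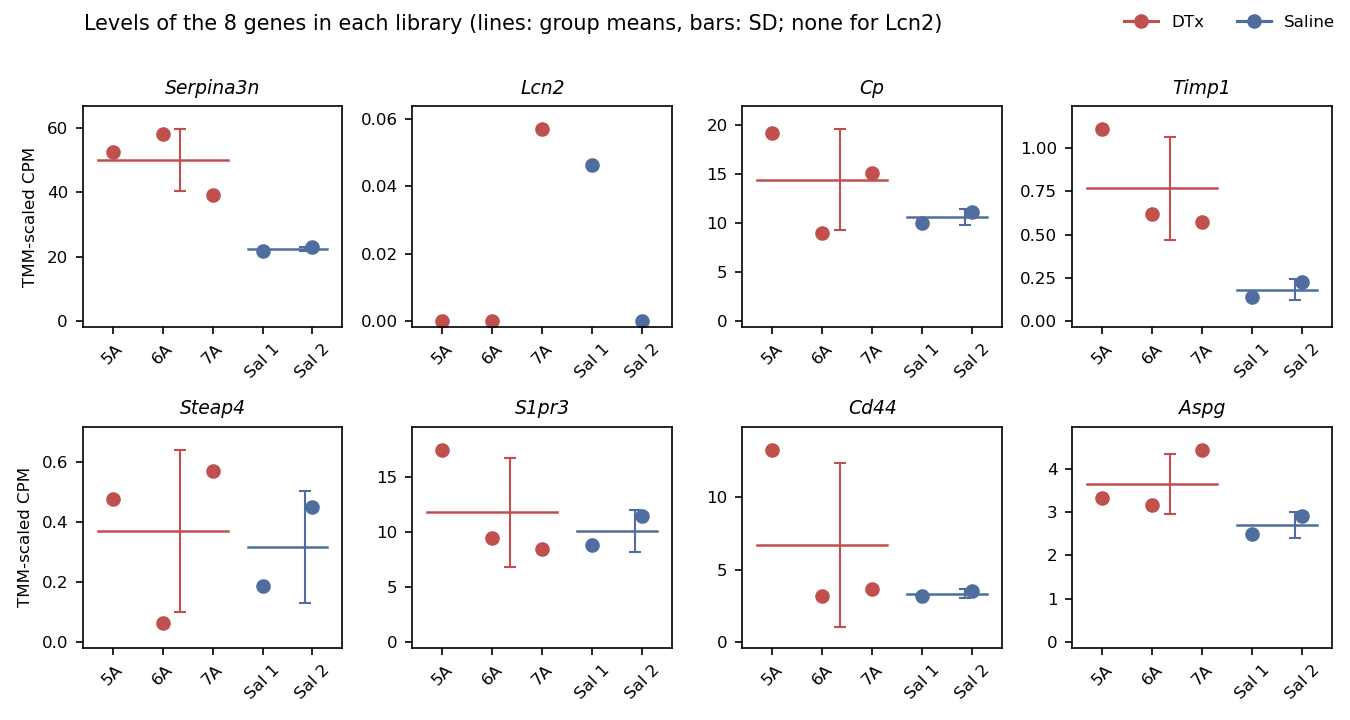
TMM-scaled level (CPM, y axis, a scale of its own in each panel) of the 8 genes in DTx-labelled libraries 5A, 6A and 7A and saline replicates 1 and 2, with group means as lines and SD as bars. Serpina3n, Timp1 and Aspg were higher in every DTx library than in either saline library, while Cd44 stood apart in library 5A at 13.3 CPM.

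Of the protease inhibitors, Serpina3n (chromosome 12, 104406646 to 104414334) was at 52.5, 58.0 and 39.2 CPM in DTx-labelled libraries 5A, 6A and 7A and at 21.8 and 22.9 CPM in saline replicates 1 and 2. The lowest DTx library lay well above the higher saline library, and the saline libraries lay close together. The means were 49.9 ± 9.65 CPM in DTx (SD, n = 3) and 22.4 ± 0.724 CPM in saline (SD, n = 2). Its log2 fold change was 1.16 ± 0.198 (SE), or 2.23-fold with a 95% interval of 1.61 to 3.1, and by unadjusted p (0.000776) it ranked 15 among 15532 genes. The edgeR adjusted p was 0.759, whereas DESeq2, run as an alternative, gave an adjusted p of 0.000843. Over the other alternatives the adjusted p was at least 0.0677, and the fold change stayed between 1.03 and 1.31 on the log2 scale. It was the most abundant of the 8 genes in every library per length of exon, at 24.2 ± 4.67 CPM per kilobase in DTx and 10.8 ± 0.351 CPM per kilobase in saline (SD).

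Serpina3n belongs to a cluster of related paralogs, so some reads could be split between them. The close relative Serpina3m had no count in any library, Serpina3i had 0.0622 CPM in library 6A and none elsewhere, and Serpina3g stayed between 0.0448 and 0.139 CPM over the 5 libraries. Reads counted for Serpina3n therefore outnumbered those of these relatives by a wide margin, although the authors' handling of multimapping reads is not given in the sources used here. Of 17 other serpins listed, 4 were abundant enough to be tested and none passed. Serpine2, a brain protease inhibitor and the most abundant of them, was at 3040, 2880 and 3070 CPM in DTx-labelled libraries 5A, 6A and 7A and 2790 and 3430 CPM in saline, so its groups overlapped. Serpini1 (neuroserpin), at 14.6, 10.3 and 8.26 CPM in DTx and 5.68 and 7.22 CPM in saline, was the 1 of the 4 without overlap, against 12.1% of all genes higher without overlap.

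Timp1 (chromosome X, 20870166 to 20874737) was scarce in all libraries but separated the groups. It had 21, 10 and 10 counts in DTx-labelled libraries 5A, 6A and 7A and 3 and 5 counts in saline replicates 1 and 2. In CPM these were 1.11, 0.622 and 0.57 in DTx and 0.139 and 0.224 in saline, so every DTx library lay above both saline libraries and library 5A was the highest. The log2 fold change was 2.05 ± 0.635 (SE), a 4.13-fold difference with a 95% interval of 1.44 to 11.8, with an unadjusted p of 0.0158 and an edgeR adjusted p of 0.789. Without library 5A the log2 fold change was 1.68. Because Timp1 is X-linked, its difference also coincides with the difference in Xist, and the part of the sex chromosomes in it was not tested. The gene lies whole inside an intron of Syn1, a synaptic vesicle gene on the opposite strand, and whether counting used the strand is not given. Syn1 was at 33.2, 65.5 and 46.3 CPM in DTx and 35.6 and 31.2 CPM in saline (log2 fold change 0.53), and the part of its reads in the Timp1 counts was not tested.

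Timp1 acts on a family of matrix and membrane proteases. Of 17 genes listed as metalloproteinases and inhibitors, 14 were tested and none passed, 6 with a log2 fold change above 0 and 8 below, with a median of -0.0742. The list also holds Cd63, a surface protein that is neither, which is counted among the 6 above 0 (log2 fold change 0.157). The abundant relatives Timp3 and Timp4 were at 969, 1070 and 782 CPM and 381, 402 and 413 CPM in the DTx libraries and at 695 and 817 CPM and 366 and 396 CPM in saline, overlapping between groups. Lower in every DTx library than in either saline library were Mmp15, Adam10, Adamts1 and Adamts4, 4 of 14 against 8.99% of all genes, and their log2 fold changes were -0.91, -0.44, -0.90 and -0.98, all with an edgeR adjusted p of at least 0.761. Mmp15, Adamts1 and Adamts4 were named after their values were seen. Adamts4 was at 34.8, 49.8 and 124 CPM in DTx and 149 and 125 CPM in saline. Mmp15 was at 9.14, 13.2 and 21.5 CPM in DTx and 32.5 and 22.3 CPM in saline. For both genes, library 7A thus lay close to saline replicate 2. Oligodendrocyte markers were also lowest in libraries 5A and 6A, and their part in these values was not tested. For Adam10, a membrane protease that releases many surface proteins, the values were 102, 101 and 114 CPM in DTx and 147 and 140 CPM in saline.

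None of the 3 genes of metal handling separated the groups. Cp and Steap4 had a similar order of libraries, both lowest in library 6A, and Lcn2 had too few counts to show a pattern. Cp (chromosome 3, 19956933 to 20009750) was at 19.2, 8.96 and 15.1 CPM in DTx-labelled libraries 5A, 6A and 7A and 10 and 11.1 CPM in saline replicates 1 and 2. Library 6A was the lowest of all 5 and library 5A the highest, so the DTx group spanned the saline one. The log2 fold change was 0.45 ± 0.322 (SE) with an edgeR adjusted p of 0.816, and the 95% interval of the fold reached from 0.8 to 2.33. Leaving out library 6A gave 0.695 and leaving out library 5A gave 0.185. Exons of Hps3 on the opposite strand overlap those of Cp, and Hps3 was at 7.35, 7.59 and 9.23 CPM in DTx and 9.6 and 9.28 CPM in saline.

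Lcn2 (chromosome 2, 32384637 to 32387739) had 1 count in DTx library 7A, 1 count in saline replicate 1 and none in the other 3 libraries. A count of 0 allows up to 3 counts, which is 0.134 to 0.187 CPM in these libraries, and all 5 lay under that limit. No difference between groups was detectable at this depth, and no fold is given. Slc22a17, which encodes a cell-surface receptor for Lcn2, was abundant at 269, 336 and 354 CPM in DTx and 422 and 316 CPM in saline, with overlapping groups. Neutrophils store Lcn2, and of 8 neutrophil markers Ngp, Retnlg and Mmp8 had no count in any library, while the summed level of the 8 was at most 0.269 CPM.

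Steap4 (chromosome 5, 7960472 to 7982213) had 9, 1 and 10 counts in DTx-labelled libraries 5A, 6A and 7A and 4 and 10 counts in saline replicates 1 and 2. These were 0.476, 0.0622 and 0.57 CPM in DTx, against 0.185 and 0.448 CPM in saline, and library 6A lay under all others. Too few reads kept it out of the edgeR test, and a two-sided exact permutation test over the 5 libraries gave p = 0.8, where the smallest p possible is 0.1. Of 19 further genes of iron and copper handling, all were tested and none passed, 13 with a log2 fold change above 0 and 6 below, at a median of 0.0613. Fth1 and Ftl1, the ferritin chains that store iron, overlapped between groups. Trf (transferrin), an iron carrier that oligodendrocytes make, was at 3480, 2760 and 6330 CPM in DTx and 6880 and 7140 CPM in saline, a log2 fold change of -0.74 ± 0.36 (SE) with an edgeR adjusted p of 0.797. Oligodendrocyte markers were low in the same libraries, 5A and 6A, and their part in the Trf values was not tested.

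Of the surface receptors, S1pr3 (chromosome 13, 51408618 to 51422797) was at 17.5, 9.45 and 8.49 CPM in DTx-labelled libraries 5A, 6A and 7A and 8.82 and 11.5 CPM in saline replicates 1 and 2. Library 5A lay above the other 4 libraries, which were intermixed. The log2 fold change was 0.22 ± 0.35 (SE) with an edgeR adjusted p of 0.913, and it was -0.18 without library 5A. A 95% interval of 0.651 to 2.08 for the fold leaves changes of either direction possible. The opposite-strand transcript Gm32834 shares exon positions with S1pr3 and was at 3.28, 3.05 and 1.88 CPM in DTx and 1.8 and 1.34 CPM in saline. Among 12 other genes of sphingosine 1-phosphate signalling 11 were tested and none passed, 2 with a log2 fold change above 0 and 9 below, at a median of -0.0678. S1pr1, the abundant receptor of this family in these cells, was at 580, 619 and 557 CPM in DTx and 533 and 614 CPM in saline.

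Cd44 (chromosome 2, 102811141 to 102901669) was at 13.3, 3.17 and 3.65 CPM in DTx-labelled libraries 5A, 6A and 7A and 3.14 and 3.54 CPM in saline replicates 1 and 2. One library thus held a level 4.18 times that of the lowest DTx library, and the other DTx libraries fell among or beside the saline ones. The log2 fold change of 1.004 ± 0.674 (SE, edgeR adjusted p = 0.814) became 0.0271 without library 5A. Among 15 genes of hyaluronan and Cd44 binding, 11 were tested and none passed, 7 above 0 and 4 below on the log2 scale, at a median of 0.0403. The hyaluronan synthases Has1, Has2 and Has3 were all under the test's filter, at no more than 0.211 CPM in any library. Msn and Ezr, linkers between Cd44 and the actin skeleton, were at 52.4, 43.0 and 45.6 CPM and 55.9, 57.6 and 36.1 CPM in DTx and at 37.0 and 41.2 CPM and 59.1 and 50.9 CPM in saline. The linker Rdx, the most abundant gene of this list, was at 254, 253 and 294 CPM in DTx and 313 and 310 CPM in saline. Without overlap, Msn was higher and Rdx lower in DTx, while Ezr overlapped. That is 1 of 11 in each direction, near the 12.1% higher and 8.99% lower of all genes.

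Aspg (chromosome 12, 112106683 to 112127573) was at 3.33, 3.17 and 4.44 CPM in DTx-labelled libraries 5A, 6A and 7A and 2.49 and 2.91 CPM in saline replicates 1 and 2. Every DTx library was above both saline libraries, but by a margin that was small beside the spread within the groups. The log2 fold change was 0.43 ± 0.316 (SE, edgeR adjusted p = 0.817) and ran from 0.266 without library 7A to 0.549 without saline replicate 2. Of 8 enzymes with related activities all were tested and none passed, with a median of 0.193. Asrgl1, a further asparaginase and the most abundant of these enzymes, was at 480, 595 and 476 CPM in DTx and 386 and 484 CPM in saline.

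**Figure D2:**
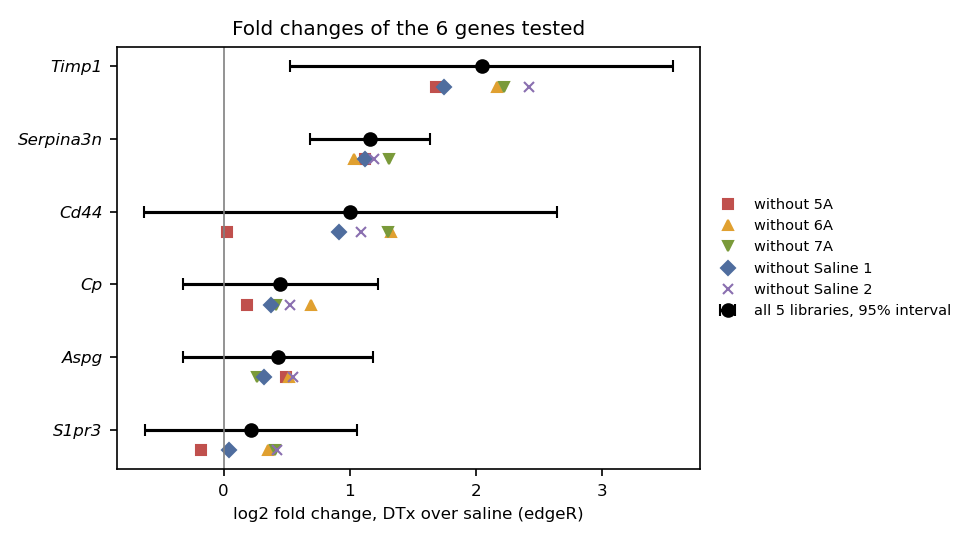
Log2 fold change of DTx over saline libraries (x axis) for the 6 genes tested, from edgeR, with 95% intervals over all 5 libraries (black) and the values with each library left out in turn (coloured markers below). Intervals of Timp1 and Serpina3n lay above 0 before adjustment, and leaving out library 5A moved Cd44 to 0.0271 and S1pr3 to -0.18.

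Per length of exon, Serpina3n was followed by S1pr3 at 2.65 ± 1.11 CPM per kilobase in DTx and 2.27 ± 0.421 in saline and by Cp at 1.51 ± 0.538 in DTx and 1.1 ± 0.0812 in saline (SD, n = 3 and n = 2). Within the DTx libraries, the levels of Aspg (1.04 ± 0.197), Cd44 (0.988 ± 0.841) and Timp1 (0.864 ± 0.336 CPM per kilobase) lay within the spread of one another. Within the saline libraries the same genes were apart by more than their SD, at 0.768 ± 0.0845, 0.493 ± 0.0419 and 0.204 ± 0.0682 CPM per kilobase for Aspg, Cd44 and Timp1. Steap4 at 0.117 ± 0.0856 in DTx and 0.1 ± 0.0591 in saline came next, and Lcn2 was last. Exon lengths came from the GENCODE M21 annotation, which need not be the one the authors counted on. Serpina3n made up 48.9%, 69.5% and 54.4% of the summed CPM of the 8 genes in DTx-labelled libraries 5A, 6A and 7A and 46.8% and 43.5% in saline replicates 1 and 2. Without it the sum was 54.9, 25.4 and 32.9 CPM in DTx and 24.8 and 29.7 CPM in saline, so the groups overlapped for the other 7 genes together.

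The DTx libraries differed among themselves in which of the 8 genes was high. Library 5A had the highest level of 4 of the 6 genes tested (Cp, Timp1, S1pr3 and Cd44), library 6A of Serpina3n and library 7A of Aspg, and saline replicate 1 had the lowest level of 4. Library 5A also stood apart in markers of other cells. The 10 monocyte and border macrophage markers summed to 221.3 CPM there, against 27.36 and 81.17 CPM in DTx libraries 6A and 7A and 24.38 and 34.47 CPM in saline. Lyz2, a macrophage lysozyme, was at 91.3 CPM in 5A, 9.76 and 29.2 CPM in 6A and 7A, and 6.42 and 9.82 CPM in saline, while Ly6c2, which defines classical monocytes, had no count in any DTx library and 0.0897 CPM in saline replicate 2. All 7 of these markers that were tested had a log2 fold change above 0, with none past the threshold. Macrophages carry Cd44, and the part of these cells in the values of Cd44, Cp, S1pr3 and Timp1 in library 5A was not tested.

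Other cell types followed other patterns. Microglia markers summed to 303.4, 257.4 and 201.8 CPM in DTx-labelled libraries 5A, 6A and 7A and 106.1 and 221.4 CPM in saline replicates 1 and 2, and 9 of 10 had a log2 fold change above 0. Saline replicate 2 lay within the range of the DTx libraries in these markers, and the part of microglia in the values of the 8 genes was not tested. Neuron markers summed to 321, 437 and 373.1 CPM in DTx and 269.1 and 268.2 CPM in saline, without overlap, and their part was not tested either. Ependymal markers were high in DTx library 5A and saline replicate 1, at 149.5 and 241.3 CPM, and at most 28.98 CPM in the other libraries. Mural and fibroblast markers were at 353.4, 277.6 and 342.1 CPM in DTx and 204.9 and 456.8 CPM in saline, so the highest library was a saline one. Summed endothelial markers were at most 19.94 CPM, and choroid plexus markers were at 88.9, 104.2 and 27.97 CPM in DTx and 37.54 and 25.73 CPM in saline, with Ttr, the defining gene of that tissue, at no more than 0.693 CPM. Lymphocyte markers summed to at most 1.004 CPM.

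**Figure D3:**
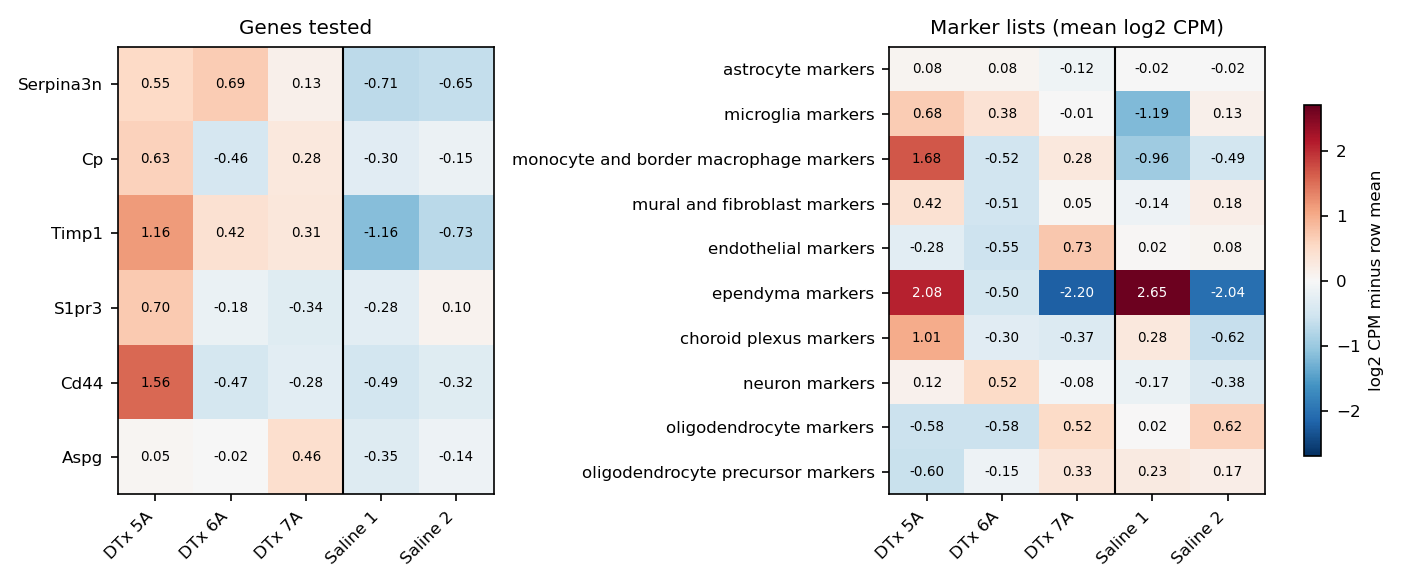
Log2 CPM minus the mean over 5 libraries for the 6 genes tested (left) and for the mean of each cell type marker list (right), by library, with DTx libraries left of the line and saline libraries right of it. Cd44 (1.56) and the monocyte and border macrophage markers (1.68) were both highest in library 5A. By this measure the microglia, mural and fibroblast and choroid plexus markers were highest there as well. Serpina3n was above its mean in every DTx library and below it in both saline libraries.

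Patterns over the 5 libraries were compared by the root mean square difference in log2 CPM after centring each gene. Between the 6 genes tested the closest pairs were Cp and S1pr3 (0.326), Cp and Aspg (0.336) and Serpina3n and Timp1 (0.372), and the farthest was Cd44 and Aspg (0.783). Among 10749 other genes of at least 5 CPM, the 3 closest to Serpina3n were Tmsb10, Gatsl3 and Ctxn2. Tmsb10, an actin-binding thymosin, differed from it by 0.0825 and was at 48.3, 53.2 and 34.1 CPM in DTx and 20.1 and 23.7 CPM in saline. Gatsl3 and Ctxn2 differed by 0.0885 and 0.0976. The measure depends on how much a gene varies as well as on its order of libraries, so genes that vary little come out close. The prior count of 2 also shrinks the values of a gene as scarce as Timp1. With 5 libraries and this many genes such closeness is a description only.

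The other reactive astrocyte genes were set beside the 8. Of the remaining 5 shared genes, Gfap was at 1080, 1130 and 1610 CPM in DTx and 290 and 741 CPM in saline, and Osmr, which encodes a receptor of oncostatin M, stood at 3.96, 3.67 and 3.3 CPM in DTx and 0.923 and 2.02 CPM in saline, both without overlap. Vim overlapped between groups, at 28.5, 11.8 and 6.66 CPM in DTx and 27.1 and 6.41 CPM in saline. Cxcl10, an interferon-induced chemokine, had 87, 187 and 9 counts in DTx-labelled libraries 5A, 6A and 7A and none in saline, at least 78.9-fold higher against 3 counts over the saline group. The bound was 38.6-fold without library 6A, in an alternative chosen after seeing the data. None of the 5 passed the threshold (3 above 0 and 2 below, median log2 fold change 1.30, also with Cxcl10 at its bound). In the LPS-type list 11 of 12 genes were tested and none passed, all 11 with a log2 fold change above 0 and 10 higher without overlap, at a median of 1.86, and in the ischaemia-type list 8 of 12 were tested and none passed, 2 higher without overlap, at a median of 0.39. Over all genes tested, 50.3% had a log2 fold change above 0, and 12.1% were higher and 8.99% lower in DTx without overlap. Some genes higher without overlap would not have entered the test on their saline reads alone, among them Cxcl10, H2-T23, Iigp1, Srgn and Ptgs2. The tested genes are therefore not a neutral sample of these lists, and all of these names but Cxcl10 were chosen after their values were seen. Differences between these lists were not tested.

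Signals known to induce the group were present in part. Of 23 cytokines, receptors and factors listed, 19 were tested and none passed, with 12 log2 fold changes above 0 and 7 below, at a median of 0.242. Without overlap, 8 were higher and 1 lower in DTx, against 12.1% and 8.99% of all genes. Among those higher, Il1b and Osm would not have entered the test on their saline reads alone. The 19 are therefore not a neutral sample of the list, and both genes were named after their values were seen. Stat3, the transcription factor downstream of gp130 receptors, was at 143, 168 and 148 CPM in DTx and 115 and 121 CPM in saline, without overlap, with a log2 fold change of 0.38 ± 0.145 (SE, edgeR adjusted p = 0.789). Nfkbia, an inhibitor and target of NF-kB, was at 71.6, 60.3 and 97.4 CPM in DTx and 28.1 and 47.9 CPM in saline, with an edgeR adjusted p of 0.789. The receptor subunits Lifr and Il6st were at 172, 190 and 225 CPM and 101, 129 and 125 CPM in DTx and at 204 and 226 CPM and 130 and 139 CPM in saline, Il6st lower without overlap and Lifr overlapping.

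**Figure D4:**
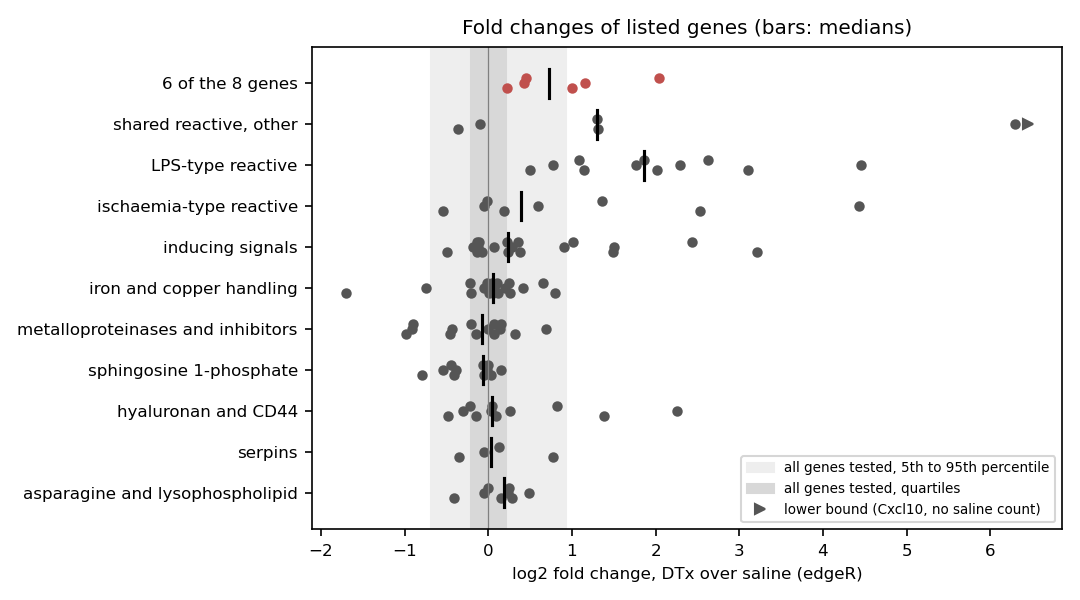
Log2 fold change of DTx over saline libraries (x axis, edgeR) for each tested gene of the lists, with medians as bars and the range of all genes tested as grey bands (quartiles -0.203 to 0.217, 5th to 95th percentile -0.682 to 0.925). Of the 8 genes the 6 tested lie above 0 with a median of 0.727, and the list of LPS-type genes has a median of 1.86.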

How the data were processed

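The values are whole-number counts of reads per gene, deposited by the authors with no normalization and with 1 column for each library. Per the submitters' processing notes, fastp 0.23.2, STAR 2.7.5c, featureCounts 2.0.1 and edgeR 3.42.4 were among the tools and GRCm38 and mm10 the builds, while the annotation and the strand and multimapping settings are not given. Saline columns were tied to replicates by number and DTx columns to the group only. The count table held 1 further column, labelled as a control (Ctrl) but matching no sample, and it was not used. Every saline value here therefore rests on 2 libraries.

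DTx and saline libraries were compared with edgeR 4.0.16 in R 4.3.3 (TMM, filterByExpr with a minimum count of 10, robust quasi-likelihood F test, Benjamini-Hochberg over all genes tested, threshold 0.05). This test was checked on simulated data. Log2 CPM used a prior count of 2. Intervals of folds are 95% intervals from the same fit, and floors cover counting error only. Alternatives were scaling by RLE, by upper quartile or by totals alone, a different low-count filter or none, each library left out, DESeq2 1.42.0 and limma-voom (limma 3.58.1). Every pair of libraries differed beyond sampling noise (chi-square per degree of freedom at least 14.25). The labels do not say that libraries are separate animals, so a p-value reflects only how far these libraries spread, which may be technical. SE is the log2 fold change divided by the root of F. The text names the 8 genes, Xist, Ddx3y and Ccr2, close relatives of Serpina3n, the receptor of Lcn2, the 3 genes nearest to Serpina3n in pattern among those of at least 5 CPM, and from each list some of its 4 most abundant genes. Other names (defining markers at or near 0, the hyaluronan synthases and those stated) were chosen after their values were seen. Syn1, Hps3 and Gm32834 are named for their overlap with a gene of the group. RefSeq (GRCm38.p6) gave positions and promoters and matched 32501 of 35976 symbols, and GENCODE M21 gave exon lengths. The 8 genes and the lists were chosen with earlier results of these data known.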

Additional observations from a re-analysis of the deposited data

How the results depend on the processing

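None of the 6 genes tested passed under 11 of the 12 alternatives, and DESeq2 called 1, Serpina3n. Over all genes 5 passed, against 9 with no low-count filter, 117 with DESeq2, and 5 to 13 with a library left out (13 without library 7A). The fold change of S1pr3 was reversed without DTx library 5A, at -0.18, and reached 0.422 without saline replicate 2, and no other fold change of the 6 reversed. The median of the 6 was 0.338 (without 5A) to 0.864 (without 6A) with a library left out, while a filter keeping genes that reach 1 CPM in 2 libraries removed Timp1 and gave 0.452. The 3 genes without overlap were the same under the 3 other scalings. With a library left out, chosen after seeing the data, 3 to 5 genes did not overlap, Cp and Cd44 being added without library 6A and Cd44 without saline replicate 2. The share of all genes so separated, 12.1% over 5 libraries, was 15.1% without 6A and 33.3% without saline replicate 2, so these counts are not comparable with that over 5 libraries. No paired analysis was possible because no label holds the numbers of the DTx columns. Depth limits Lcn2, Steap4 and Timp1, which had 41 counts or fewer in all DTx libraries together.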
